A study of Mus musculus with 4 samples.

Results

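The genes described here encode 10 proteins that carry glucose carbon to pyruvate, interconvert pyruvate and lactate, or bring pyruvate into the mitochondrial matrix and on to acetyl-CoA. They are Hk1, Pfkl, Pfkp, Gapdh, Pkm, Ldha, Ldhb, Mpc1, Mpc2 and Pdha1. They were chosen by name, and every row of the deposited transcript table carrying the NCBI gene number of one of them was summed to a gene total. All 10 are listed, with 23 transcripts, in a table of 45505 transcripts and 17374 genes. The RNA came from germinal vesicle (GV) stage oocytes, which are arrested in meiotic prophase, isolated on postnatal day 16 from non-primed females of a C57/Bl6/DBA2J F1 hybrid background. Control oocytes and oocytes given 5 Gy of γ-irradiation from a Cesium-137 source were compared, with 2 libraries of each, and the irradiated cells were collected the day after exposure. All 4 pools were handled in MEM with bovine serum albumin and milrinone, which keeps oocytes in the GV stage, and were stripped of cumulus cells and zona pellucida before lysis and oligo(dT) selection. The labels describe a drop of M2 medium under mineral oil for the irradiated oocytes and do not say how controls were handled at that step, and the series description has the controls sequenced directly, so radiation, time in culture and handling cannot be told apart in this comparison.

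Glycolysis is governed by hexokinase, which traps glucose as its phosphate, by phosphofructokinase, which commits it to breakdown, and by pyruvate kinase, which makes pyruvate. Lactate dehydrogenase is a tetramer of A and B subunits in most tissues and of C subunits in male germ cells, and it converts pyruvate and lactate into each other together with NADH and its oxidised form. The growing mouse oocyte uses glucose poorly and takes pyruvate and lactate from the surrounding cumulus cells, imports pyruvate through the mitochondrial carrier and oxidises it by way of the pyruvate dehydrogenase complex.

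The libraries held between 33349466 and 37232818 estimated counts. Irradiated library 2 stood apart from the other 3. Its log2 values deviated from the mean of the others with an SD of 0.454, against 0.222 to 0.260 for the remaining libraries, and its TMM factor was 1.19 against 0.923 to 0.975. Several values below are also given without it. The label of GV oocyte was checked against 14 oocyte markers, including Zp1 to Zp3, Gdf9, Bmp15 and Nobox. All 14 had a mean above 1 TPM, and their TPM summed to between 45353 and 50725. Of 20 cumulus and granulosa markers, 14 were listed and their TPM summed to 18.0 and 20.5 in the controls and 17.8 and 24.8 after irradiation, while Amh, Foxl2 and Ptx3 were not listed. Of these markers 5 had a mean above 1 TPM, namely Fshr, Cyp19a1, Kitl, Nr5a2 and Cyp11a1, and the highest was Cyp19a1, the aromatase of granulosa cells, at 8.79 to 10.2 TPM. Of 17 theca, stroma, blood and immune markers, 7 were listed, with sums of 5.98 to 9.93 TPM. The part of these other cells in the levels below was not tested, and in bulk pools fewer cells of a type and less RNA per cell cannot be told apart.

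The levels of the 10 genes spanned from single reads to the highest level in the table. Levels between genes are compared here in TPM, which is corrected for transcript length and brought to 1 total for all libraries. Averaged over 4 libraries, the order was Ldhb, Mpc1, Gapdh, Mpc2, Pkm, Pdha1, Pfkp, Pfkl, Ldha and Hk1. The ranges over libraries overlapped between neighbours for Mpc2 with Pkm, and for Ldha with Hk1. The other 7 pairs of neighbours did not overlap. All but Ldhb together summed to 498 and 514 TPM in the controls and to 524 and 645 TPM after irradiation, while Ldhb alone reached 26620 TPM or more in every library.

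**Figure D1:**
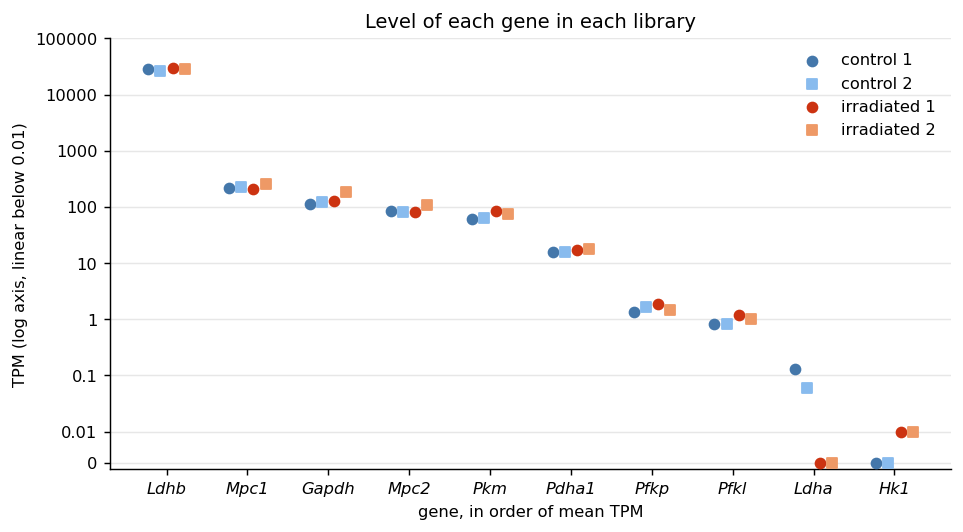
Level of each of the 10 genes in TPM (vertical axis, logarithmic above 0.01 and linear below) in each of the 4 libraries, with genes in order of their mean. Circles are replicate 1 and squares replicate 2, blue for control and red or orange for irradiated. Ldhb sits between 26620 and 29416 TPM, Mpc1, Gapdh, Mpc2 and Pkm between 60.7 and 259 TPM, and Ldha and Hk1 at or below 0.13 TPM.

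Hexokinase RNA was scarce in these oocytes. Hk1 (GRCm38 chr10:62268855-62379920), the hexokinase of brain and most tissues, was listed with 1 of its 9 annotated RefSeq transcripts, a predicted one. It drew 0 counts in both controls and 1 count in each irradiated library. A count of 0 allows up to 3 counts, or 0.0806 and 0.0900 CPM (the count relative to the library's total) in controls 1 and 2, so single counts in the irradiated oocytes lie within what the controls allow. Other hexokinase genes were also scarce. Hk2, the insulin-responsive hexokinase, had 33, 30, 18 and 21 counts in controls 1 and 2 and irradiated libraries 1 and 2. It did not exceed 0.23 TPM in any library, Hkdc1 had at most 2 counts and Hk3 was not listed. Hk2 lay lower in both irradiated libraries, with a log2 fold change of -0.83 (SE 0.314, edgeR adjusted p = 0.708), which did not pass. Here and below, edgeR adjusted p-values come from its quasi-likelihood test of the 4 libraries, corrected over all genes or transcripts tested by the method of Benjamini and Hochberg.

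Both phosphofructokinase genes of the set were expressed at about 1 TPM. Pfkl (chr10:77986947-78009807), the liver form, measured 0.83 and 0.82 TPM in the controls and 1.17 and 1.03 TPM in the irradiated oocytes. Pfkp (chr13:6579874-6649060), the platelet form, measured 1.34 and 1.63 TPM in the controls against 1.87 and 1.47 TPM. On the TPM scale the conditions separated for Pfkl and overlapped for Pfkp. On normalized counts, the estimated counts after TMM scaling, Pfkl had 83.0 and 77.0 in the controls and 111 and 74.1 after irradiation, and the conditions overlapped, since irradiated library 2 lay below both controls. The muscle form Pfkm measured 1.62, 1.43, 1.16 and 1.42 TPM. Pfkp therefore held 35.4% to 44.5% of the family's TPM and Pfkl 21.1% to 27.9%. The share rests on a predicted Pfkp transcript, XM_006516487.4, which took 53.6% to 66.1% of the gene's counts. The known transcript NM_019703.4 took 29.3% to 43.3%. Over known transcripts alone the mean share of Pfkp was 25.7% in place of 39.8%. On that basis Pfkl held 35.6% and 50.6% in the controls and 64.6% and 43.6% after irradiation, and Pfkm ranged from 0% to 47.2%.

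Gapdh and Pkm are the members that act in glycolysis after phosphofructokinase, and Gapdh was the more abundant of them. It was also the only one of the 8 tested members whose normalized counts lay higher in both irradiated libraries. Gapdh (chr6:125161852-125166467) encodes the dehydrogenase that makes the first NADH of the pathway, and it also served as the reference gene of the study's real-time PCR. Its normalized counts were 3697 and 3865 in the controls and 4003 and 4376 in the irradiated oocytes. The 2 conditions did not overlap, as was the case in this direction for 22.1% of the 12569 genes tested. The log2 fold change was 0.15 (SE 0.144, 95% interval -0.19 to 0.49, edgeR adjusted p = 0.758). A change beyond 1.40-fold upwards therefore lies outside the interval. In TPM, which carries no TMM factor, the same libraries read 113, 125, 128 and 185, and the last value belongs to the library that stood apart. Leaving out irradiated library 2 gave a log2 fold change of 0.083. The testis paralog Gapdhs was not listed.

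The counts of Gapdh were divided between 2 transcripts, NM_008084.3 with 55.2% and NM_001289726.1 with 44.8%. The second had normalized counts of 1630 and 1539 in the controls and 1954 and 2003 after irradiation, which did not overlap. Its log2 fold change was 0.32 (SE 0.0993, unadjusted p = 0.0354, edgeR adjusted p = 0.880). Transcripts with an unadjusted p under 0.05 made up 4.9% of the 26645 tested, and 0.0% were called. The first overlapped between conditions, at 2038, 2304, 2029 and 2438. Use of the Gapdh transcripts relative to each other did not differ past the threshold, with an adjusted p of 1.00 for Simes' method in edgeR's diffSpliceDGE.

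Pkm (chr9:59656576-59679372) makes pyruvate and was the gene of the set with the most varied transcripts. Its known transcripts differ by a pair of mutually exclusive exons. The M1 type is the constitutively active form of muscle and brain, and the M2 type is the allosterically regulated form of embryonic and proliferating cells. Both exons are shown because they are what separates the 2 counts. They come from GENCODE transcripts on GRCm38, lie on the plus strand within the coding region at chr9:59675029-59675195 for M1 and chr9:59675568-59675734 for M2, and are printed with capitals at the 64 of 167 positions where they differ.
Pkm M1 type: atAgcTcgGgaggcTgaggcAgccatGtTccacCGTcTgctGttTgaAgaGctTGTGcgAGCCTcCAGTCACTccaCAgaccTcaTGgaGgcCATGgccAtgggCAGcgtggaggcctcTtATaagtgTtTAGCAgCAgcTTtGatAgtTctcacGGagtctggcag
Pkm M2 type: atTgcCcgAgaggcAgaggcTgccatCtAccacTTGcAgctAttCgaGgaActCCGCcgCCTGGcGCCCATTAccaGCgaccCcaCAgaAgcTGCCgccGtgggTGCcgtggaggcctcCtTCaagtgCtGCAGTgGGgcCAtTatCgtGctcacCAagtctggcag
The exons share 61.7% of their positions and, compared base by base, no identical stretch longer than 12 bases, far below the read length of 100 bases, so a read lying in either one can be told from the other.

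The M2 type prevailed in every library. NM_011099.3, which holds the M2 exon, had estimated counts of 2635, 2639, 2814 and 2540 in controls 1 and 2 and irradiated libraries 1 and 2. NM_001253883.1, which holds the M1 exon, had 573, 513, 849 and 602. Thus the M2 transcript took 60.1% to 77.4% of the gene's counts and the M1 transcript 15.0% to 18.1%. Normalized counts of the M2 transcript overlapped between conditions, with a log2 fold change of -0.09 (SE 0.183), and so did those of the M1 transcript at 0.33 (SE 0.304). The remainder went mainly to a predicted transcript, XM_006510856.2, whose exon type was not determined here. It had normalized counts of 344 and 212 in the controls and 837 and 621 after irradiation. Both irradiated libraries lay above both controls, with a log2 fold change of 1.39 (SE 0.322, 95% interval 0.47 to 2.31). The unadjusted p was 0.0152 and the edgeR adjusted p 0.777, so the transcript did not pass, and leaving out each library in turn gave log2 fold changes of 1.09 to 1.78. A further predicted transcript, XM_006510855.1, went from 229 counts in irradiated library 1 to 0 in irradiated library 2, which shows how unevenly such counts were shared out between libraries of the same condition. Over the whole gene, relative use of transcripts had an unadjusted p of 0.585 by Simes' method, a value that lay under 0.05 for 6.12% of 6323 genes tested, while 0.253% were called after adjustment.

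**Figure D2:**
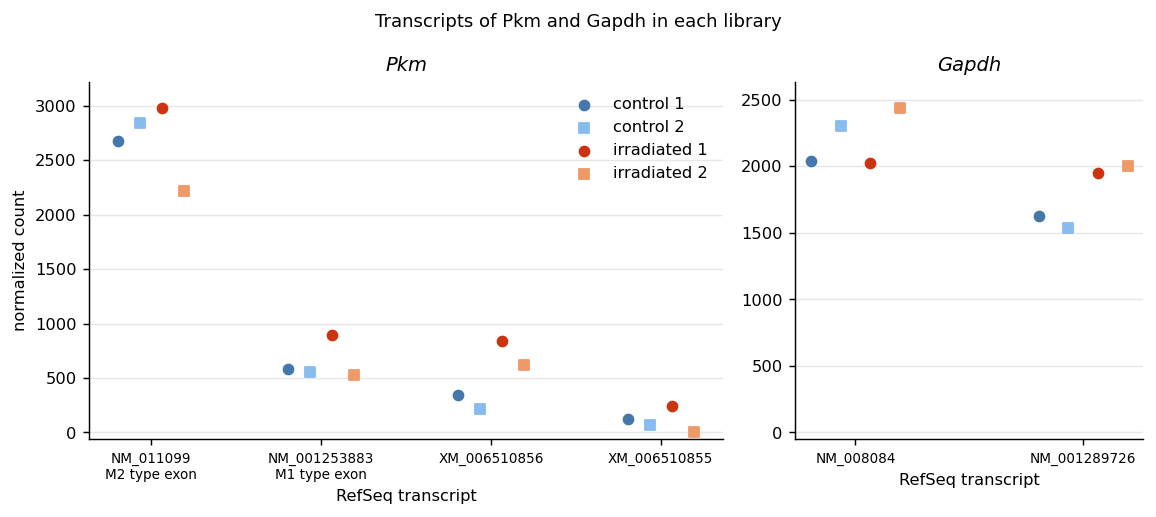
Normalized counts (vertical axis, linear) of the transcripts of Pkm on the left and of Gapdh on the right, each point a library. The M2 transcript of Pkm lies between 2220 and 2979 in all 4 libraries and the M1 transcript between 526 and 899, while XM_006510856.2 is the Pkm transcript of which both irradiated points exceed both control points.

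For the whole gene, Pkm had normalized counts of 3760 and 3695 in the controls and 4979 and 3322 in the irradiated oocytes. The irradiated libraries lay on either side of the controls, 0.58 log2 units apart, whereas the controls differed by 0.025. In TPM the gene read 60.7 and 62.9 in the controls and 85.2 and 75.2 after irradiation, so that both irradiated libraries lay above both controls on that scale. The change there was 0.37 on log2(TPM + 1), with an unadjusted p of 0.0477 by limma without a filter and an adjusted p of 0.782. The log2 fold change was 0.15 (SE 0.209, 95% interval -0.34 to 0.65, edgeR adjusted p = 0.816). The value depended on which irradiated library was kept. Leaving out irradiated library 2 gave 0.42 with an edgeR adjusted p of 0.00252, which is below 0.05 but well under the limit of 2 log2 units, and 0.791% of genes had such an adjusted p in that fit. Leaving out irradiated library 1 gave -0.18 with an edgeR adjusted p of 0.137. Among the alternatives run, the adjusted p of Pkm ranged from 0.00252 to 1.00. Pklr, the pyruvate kinase of liver and red cells, was not listed.

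Lactate dehydrogenase was almost entirely of the B type. Ldhb (chr6:142490249-142507957) measured 28977 and 26620 TPM in the controls and 29416 and 28767 TPM in the irradiated oocytes, which is 2.66% to 2.94% of all TPM. It had the highest mean of all 17374 genes, and only in irradiated library 2 did another gene, Ubb with 30204 TPM, exceed it. Ldha (chr7:46842274-46855627), the muscle-type subunit that most dividing cells use to make lactate, had 5 and 2 counts in the controls and 0 in both irradiated libraries. A count of 0 there allows up to 0.0849 and 0.0869 CPM, and with so few reads no difference was detectable at this depth. Ldhc, the testis form, lay between them at 123, 130, 105 and 88.4 TPM. Ldhb exceeded Ldhc by 205 to 326 times within a library and held 99.5% to 99.7% of the TPM of the 3 genes. A predicted transcript, XM_006540679.1, made up 73.3, 65.9, 55.9 and 51.3 TPM of the Ldhc level. Over known transcripts alone Ldhc held 0.129% to 0.239% of the TPM of the 3 genes, in place of 0.306% to 0.485%.

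The B and A subunits are similar enough that misassigned reads would matter at such a ratio. Their coding regions of 1002 and 996 bases share 71.1% of aligned positions, yet the longest stretch common to both was 18 bases, and it is shown to let the reader judge it against reads of 100 bases. It lies across the junction of exons 6 and 7 of Ldhb, on the minus strand of GRCm38 between chr6:142492611-142494111, a span that includes the intron, and is given in capitals because all positions are identical in Ldha.
Stretch shared by Ldhb and Ldha: GGTGGTGGACAGTGCCTA
Ldhb and Ldhc shared at most 19 bases in a row, and Ldha and Ldhc 20. A single known transcript of each gene was compared, and the predicted Ldhc transcript was not among them. Between the transcripts compared, reads of full length thus differ wherever they fall in the coding region.

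The 250 bases before the RefSeq starts of Ldha and Ldhb are shown because these paralogs lie at opposite ends of the range of levels. Of the 2 RefSeq windows of Ldha, the one nearer to the GENCODE start, 35 bases away, is printed. The letters ACGTG were searched on both strands. They are a form of the core bound by hypoxia-inducible factor and are contained in the E-box CACGTG. The other form of that core, GCGTG, was not searched. Matches are in capitals, reading CACGT where the match is on the other strand. RefSeq windows of GRCm38.p6 were used, chr7:46845554-46845803 on the plus strand for Ldha and chr6:142507958-142508207 on the minus strand for Ldhb.
Ldha: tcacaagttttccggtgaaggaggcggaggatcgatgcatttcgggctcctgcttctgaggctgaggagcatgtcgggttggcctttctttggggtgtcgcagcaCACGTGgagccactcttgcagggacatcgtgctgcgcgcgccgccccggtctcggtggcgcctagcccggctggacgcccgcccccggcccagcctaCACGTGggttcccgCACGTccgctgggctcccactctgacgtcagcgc
Ldhb: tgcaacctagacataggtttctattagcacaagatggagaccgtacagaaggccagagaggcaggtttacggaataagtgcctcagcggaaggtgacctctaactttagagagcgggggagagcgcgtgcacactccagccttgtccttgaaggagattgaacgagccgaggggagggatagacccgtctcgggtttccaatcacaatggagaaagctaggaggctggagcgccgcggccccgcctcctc
The window of Ldha holds ACGTG at 3 places, of which 2 read CACGTG, and the window of Ldhb holds no ACGTG. The printed window of Ldhb does hold the unsearched form GCGTG, which is not in capitals. Over all genes with a window, 18.5% hold ACGTG on either strand, and 22.2% of those listed here with counts do. Among the 10 genes described here the match occurs for Ldha and Pkm, or 20%. The other window of Ldha holds none, and a match describes the letters and not binding.

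After irradiation Ldhb had normalized counts of 880262 and 651321, against 902131 and 784092 in the controls. Irradiated library 2 was the lowest and the conditions overlapped. The log2 fold change was -0.14 (SE 0.442, 95% interval -1.19 to 0.91, edgeR adjusted p = 0.920), and the interval spans from 0.440-fold to 1.88-fold. On log2(TPM + 1) the sign was the opposite, at 0.067, and without irradiated library 2 it was 0.063. Of the 3 listed Ldhb transcripts, NM_008492.3 and NM_001316322.1 had identical values in every library, each 47.7% to 47.8% of the gene. The split between these 2 therefore holds no information. The third, NM_001302765.1, took 4.54% of the gene's counts over the 4 libraries. Ldhc had normalized counts of 3640 and 3667 in the controls and 3008 and 1902 after irradiation, which did not overlap. Its log2 fold change was -0.57 (SE 0.221, unadjusted p = 0.0361, edgeR adjusted p = 0.708), and it was -0.28 without irradiated library 2. Ldhd, the mitochondrial enzyme that acts on D-lactate, read 2.31 and 2.85 TPM in the controls and 2.96 and 3.45 TPM after irradiation, with a log2 fold change of 0.09 (SE 0.181) that was -0.01 without irradiated library 1.

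**Figure D3:**
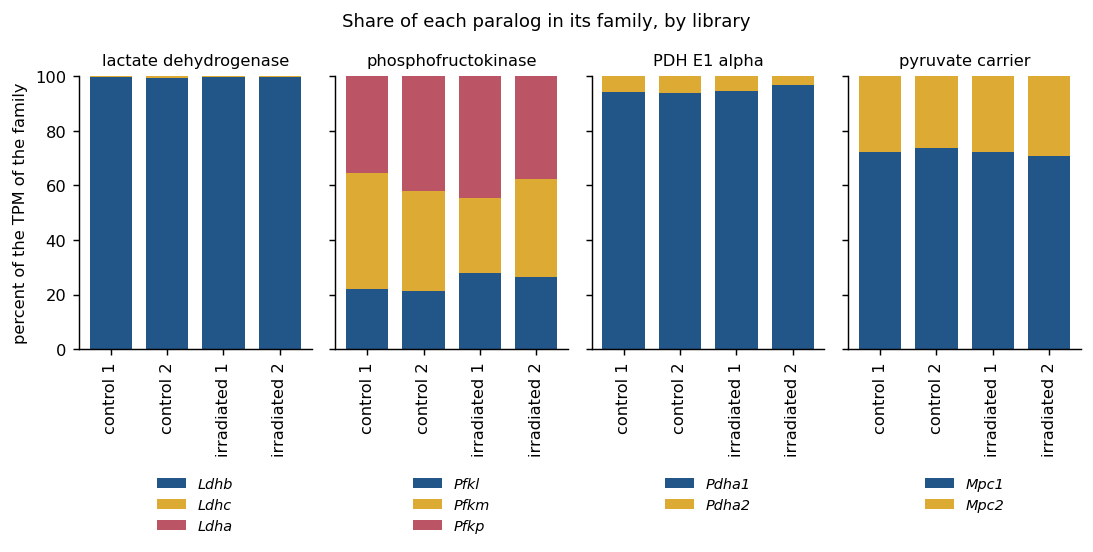
Percent of the summed TPM (vertical axis, from 0) that each paralog holds in its family, in a bar for each library and a panel for each family. Ldhb fills 99.5% or more of the lactate dehydrogenase bars and Pdha1 94.0% to 96.7% of its bars, while the phosphofructokinase bars are divided among 3 genes.

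Both subunits of the mitochondrial pyruvate carrier, which form a heterodimer in the inner membrane, were well expressed. Mpc1 (chr17:8283787-8297667) measured 221 and 227 TPM in the controls and 210 and 259 TPM in the irradiated oocytes. Mpc2 (chr1:165461260-165481218) measured 85.2 and 81.1 TPM against 80.2 and 106 TPM. Mpc1 was thus 2.44 to 2.80 times as abundant as its partner within a library, and Mpc1l, the testis paralog, was not listed. Normalized counts of Mpc1 were 4656 and 4556 in the controls and 4269 and 3986 in the irradiated oocytes. They did not overlap, and 19.9% of all genes tested were likewise lower in both irradiated libraries. The log2 fold change of Mpc1 was -0.16 (SE 0.143, 95% interval -0.50 to 0.18, edgeR adjusted p = 0.746), and in TPM the conditions overlapped with a value of 0.056 on the log2(TPM + 1) scale. Mpc2 had a log2 fold change of -0.06 (SE 0.131, 95% interval -0.37 to 0.25), the narrowest interval of the set.

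Among the 5 listed transcripts of Mpc1, NM_018819.5 took 96.9% to 99.3% of counts. A minor predicted form, XM_030249914.1, had 71, 92, 25 and 33 estimated counts in the same order of libraries, and lay lower in both irradiated libraries with a log2 fold change of -1.63 (SE 0.404, unadjusted p = 0.0191, edgeR adjusted p = 0.777). The F test of relative transcript use gave an unadjusted p of 0.0300 for Mpc1 and an adjusted p of 0.470. Unadjusted p-values under 0.05 in that test made up 7.97% of genes.

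Pdha1 (chrX:160122219-160138430) encodes the E1 alpha subunit of the pyruvate dehydrogenase complex, the site of its inactivation by phosphorylation. It measured 15.8 and 16.0 TPM in the controls and 17.2 and 18.1 TPM in the irradiated oocytes, and all of it came from 1 transcript. Its normalized counts overlapped between conditions, with a log2 fold change of -0.06 (SE 0.154, 95% interval -0.42 to 0.30, edgeR adjusted p = 0.899). On the TPM scale both irradiated libraries lay above both controls, the direction opposite to that of the fit. The testis paralog Pdha2 stood at 0.98, 1.02, 0.97 and 0.61 TPM. Pdhb, the E1 beta subunit, was 4.87 to 5.62 times as abundant in TPM, and Pdhx, which anchors the E3 subunit, 9.03 to 11.8 times, at 184, 188, 178 and 164 TPM. Dlat, the E2 subunit, read 11.1, 12.2, 11.1 and 19.6 TPM and lay below Pdha1 in all libraries but irradiated library 2.

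Across the set, 8 of 10 genes had enough counts to be tested and 0 were called, where calls were made at an edgeR adjusted p under 0.05 together with more than 2 log2 units of difference. By the same rule 1 gene of 12569, or 0.00796%, was called in the whole table. At an unadjusted p under 0.05 there were also 0 of 8, against 5.93% of all genes, and under DESeq2, edgeR's exact test and limma-voom 0 members were called. Log2 fold changes ranged from -0.16 for Mpc1 to 0.20 for Pfkl, 4 above 0 and 4 below, with a median of -0.02 beside 0.01 over all genes tested. Of the 8 genes, 1 was higher in both irradiated libraries, 1 was lower in both and 6 overlapped, against 22.1% of all genes higher and 19.9% lower in both. The 2 irradiated libraries differed from each other by 0.43 to 0.73 log2 units for Pfkl, Pfkp, Pkm and Ldhb. Controls differed by 0.025 to 0.20 for the same genes. The irradiated difference was smaller for Gapdh (0.13), Mpc1 (0.099) and Pdha1 (0.33), against 0.064, 0.031 and 0.074 between controls. For Mpc2 it was 0.0031, below the 0.14 between controls. Without irradiated library 1, which leaves the library that stood apart as the only irradiated one, 4 members (Gapdh, Ldhb, Mpc1 and Pdha1) had an unadjusted p under 0.05, with adjusted p-values of 0.0549 to 0.0851, where 41.5% of all genes had such an unadjusted p.

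**Figure D4:**
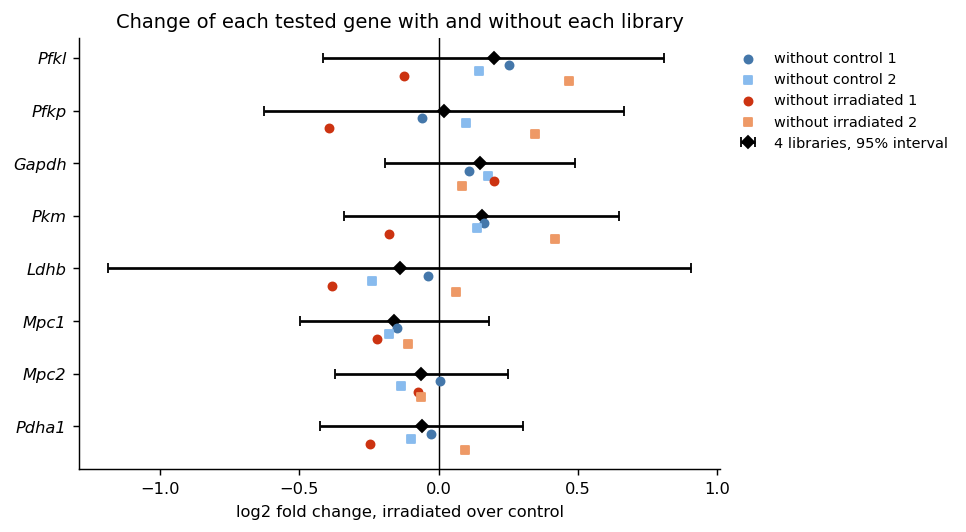
Log2 fold change of irradiated over control oocytes (horizontal axis) for the 8 tested genes. Black diamonds are the fit to 4 libraries with its 95% interval, and coloured points the value with the named library left out. Every interval includes 0, and for Pfkl, Pfkp, Pkm, Ldhb and Pdha1 the values without irradiated library 1 and without irradiated library 2 lie on opposite sides of 0.

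Around these genes, 13 lists of transporters, enzymes and regulators held 113 further genes, of which 102 were listed and 83 tested. None was called. At an unadjusted p under 0.05, 3 lay higher and 2 lower in irradiated oocytes, against 4.63% higher and 1.3% lower of all genes, and the median log2 fold change was -0.01. Groups did not overlap for 14 of the 83 genes in the higher and 16 in the lower direction, against 22.1% and 19.9% of all genes. The 3 higher genes were Slc5a2, a sodium-coupled glucose transporter, at 0.94 (SE 0.312), Gpi1, the isomerase before phosphofructokinase, at 0.42 (SE 0.146), and Emb, a chaperone of lactate transporters, at 0.43 (SE 0.172). The 2 genes lower in irradiated oocytes were Hk2 and Ldhc, with the values given above. All 5 had an edgeR adjusted p of 0.708.

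The glucose end of the pathway was sparsely represented. Of 12 hexose transporters all were listed but 5 could be tested, and the most abundant, Slc2a1, the basal glucose carrier, read 7.06, 8.91, 8.14 and 17.1 TPM. The high value is that of irradiated library 2, and without it the log2 fold change of 0.38 (SE 0.224) became 0.021. Next came Slc2a12, another carrier of the family, at 1.21, 1.93, 1.31 and 2.37 TPM, with a log2 fold change of -0.03 (SE 0.267) that became 0.17 on leaving out irradiated library 1 and -0.28 on leaving out the other irradiated library. Slc2a3, the neuronal glucose carrier, named after its values were seen, had 3 counts in control 2 and 0 elsewhere. Among the middle enzymes Tpi1, the triose phosphate isomerase, read 66.7, 69.7, 69.9 and 57.5 TPM, and Aldoa, the muscle-type aldolase, 41.3, 50.2, 51.9 and 85.3 TPM. Aldoa was higher in both irradiated libraries, with a log2 fold change of 0.35 (SE 0.164, edgeR adjusted p = 0.708) that was 0.17 without irradiated library 2.

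Bpgm was the most abundant enzyme of the lower pathway. It encodes bisphosphoglycerate mutase, which makes 2,3-bisphosphoglycerate in red cells, and it measured 3337 and 3011 TPM in the controls and 3533 and 2523 TPM in the irradiated oocytes. It exceeded Gapdh by 13.7 to 29.5 times within a library. Its log2 fold change of -0.24 (SE 0.368) came with overlapping conditions, and became 0.13 on leaving out irradiated library 2 and -0.77 on leaving out the other irradiated library. Eno1, the enolase of most tissues, read 39.6 to 50.3 TPM, whereas Pgk2 and Eno2, the forms of testis and neurons, were not listed.

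**Figure D5:**
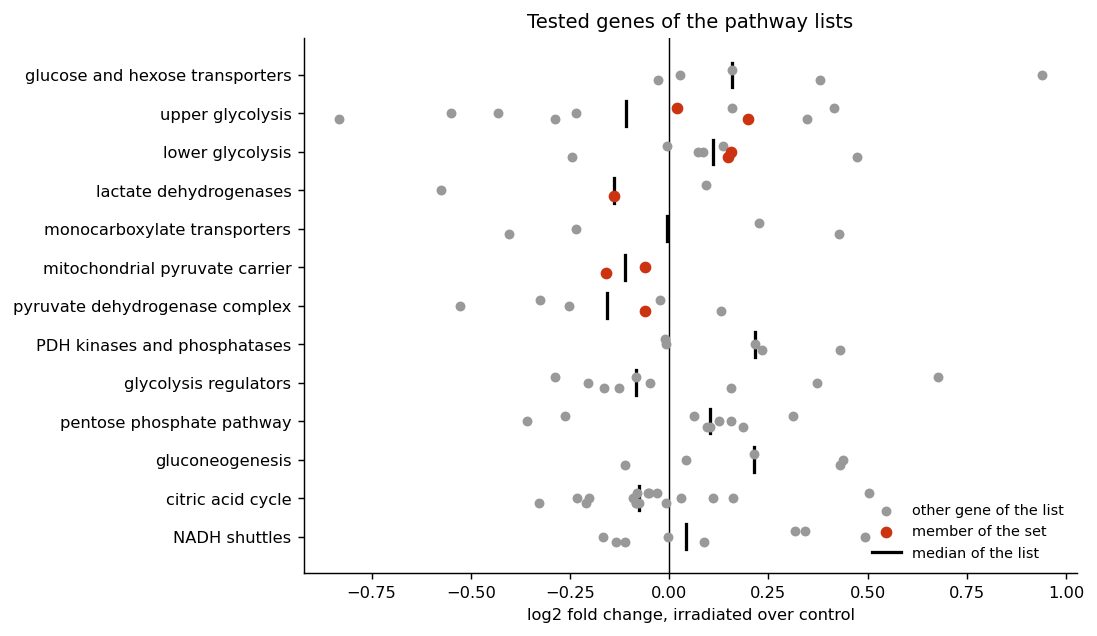
Log2 fold change of irradiated over control oocytes (horizontal axis) of each tested gene in the 13 lists, members of the set in red and others in grey, with a black bar at each list's median. NADH shuttles stands for the malate-aspartate and glycerol phosphate shuttles, and PDH for pyruvate dehydrogenase. List medians lie between -0.16 and 0.22, and no gene passes both limits of the test.

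For lactate and pyruvate transport at the cell surface, Bsg, the chaperone of the monocarboxylate carriers, read 107, 112, 112 and 196 TPM, while the carriers themselves, named after their values were seen, were scarce. Slc16a1 read 1.25 to 1.64 TPM and Slc16a7 0.56 to 0.84 TPM, and Slc16a3 was not listed. For the mitochondrial end, the pyruvate dehydrogenase complex had 5 of 6 genes below 0 with a median log2 fold change of -0.16, of which 3 did not overlap, all lower, as were 19.9% of all genes. Relative to the median of all genes the list stood at -0.052 without irradiated library 2. Dld, the E3 subunit, read 152, 164, 156 and 149 TPM, with a log2 fold change of -0.25 (SE 0.203) that was -0.03 without irradiated library 2. Its kinases and phosphatases had a median of 0.22, led in abundance by Pdk3, a kinase of the complex, at 18.0, 20.9, 19.9 and 34.3 TPM. Pdp1, the matching phosphatase, read 11.2 to 15.2 TPM, with a log2 fold change of -0.01 (SE 0.128) that was 0.033 without irradiated library 2.

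The citric acid cycle had all 17 genes tested, 13 below 0 and 4 above, with a median of -0.08 and summed levels of 1058, 1124, 1139 and 1244 TPM. Of all 12569 genes tested, 6111 lay below 0. Groups did not overlap for 4 genes of the cycle in the lower and 1 in the higher direction, against 19.9% and 22.1% of all genes. Relative to the median of all genes the list stood at -0.087, and at 0.022 without irradiated library 2. The most abundant gene of the cycle, Mdh2, the mitochondrial malate dehydrogenase, read 251, 258, 277 and 328 TPM. Its log2 fold change of 0.03 (SE 0.163) was -0.06 without irradiated library 1. Sdhb, the iron-sulfur subunit of succinate dehydrogenase, read 166, 171, 167 and 205 TPM. Mdh1 and Got1, the cytosolic enzymes of the malate-aspartate shuttle that carries NADH equivalents into mitochondria, read 64.2 to 73.7 and 18.1 to 28.2 TPM. In the pentose phosphate pathway G6pdx, which opens it, read 128, 146, 152 and 193 TPM, and Taldo1, the transaldolase, 72.8 to 111 TPM. The log2 fold change of G6pdx was 0.10 (SE 0.162), with both irradiated libraries above the controls. Of the gluconeogenic genes, Fbp1 and Fbp2, fructose bisphosphatases of liver and muscle, read 45.4 to 61.1 and 19.1 to 39.1 TPM, while Pck1 and G6pc were not listed. Among regulators Txnip, a glucose-responsive brake on glucose uptake, read 101, 111, 123 and 97.8 TPM, with a log2 fold change of -0.13 (SE 0.250) that became 0.19 on leaving out irradiated library 2 and -0.55 on leaving out the other irradiated library.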

How the data were processed

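RNA-seq of 2 control and 2 irradiated libraries was taken from 1 deposited table, with samples grouped by the condition and number in their titles. Per the labels, the processing used HISAT2, Bowtie2 and RSEM with the mm10 genome, and the methods name Bowtie2 with GRCm38, which is the same build. Versions, the annotation release and the strand setting are not given in the sources used here. The authors deposited an estimated count per RefSeq transcript, not scaled for depth, and TPM and FPKM values, both corrected for transcript length, the first to an equal total. FPKM entered only as an alternative for shares. A further 6 columns of the authors' averages were not used. Every listed transcript has at least 1 count in some library.

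Transcripts were summed per gene ID, and symbols and gene coordinates were taken from RefSeq's GRCm38.p6 table, which matched 17323 of 17374 IDs. Summed counts were rounded, filtered by filterByExpr (minimum count 10), scaled by TMM and compared between conditions by the quasi-likelihood F test of edgeR 4.0.16 under R 4.3.3, without a block. P-values were adjusted by Benjamini-Hochberg over every feature tested. Limits on the adjusted p (0.05) and on the size of the log2 fold change (2) follow the study's methods. Isoform use was tested with diffSpliceDGE. Alternatives were RLE factors, library size alone, no filter, DESeq2 1.42.0, edgeR's exact test, limma-voom and limma-trend (limma 3.58.1) on log2(TPM + 1) or log2(TPM + 0.1) with a mean TPM of at least 1 or no filter, a replicate block, and each library left out. The scripts were tested on simulated data. Plots used matplotlib 3.10.9 and Python 3.11.15.

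Members and lists were chosen with earlier results of these data known. All members are named. From each list the text names the 2 genes with the highest mean TPM, any gene called and the gene with the smallest unadjusted p if under 0.05, apart from results not reported here, and it names Ldhc, Pdha2, Gapdhs, Hk2 and Pfkm as relatives of members, and Pgk2. Hk3, Hkdc1, the monocarboxylate carriers, Slc2a3, Pdhb, Dlat and genes said not to be listed were named after their values were seen. Transcripts of a member with several listed are named from 10% of its counts or an unadjusted p under 0.05. Pkm XM_006510855.1, Ldhb NM_001302765.1 and the predicted Ldhc transcript were named after their values were seen. The 2 libraries of a condition are separate experiments in the study's methods, so p-values draw on the spread between such libraries. In the quasi-likelihood fit this spread is pooled over both conditions and moderated by that of other genes. Over 10080 genes the mean squared replicate difference was 10.9 times that of counting error alone in controls and 186 times in irradiated libraries. Intervals and the limit of 3 counts for a count of 0 cover spread or counting error only. Exon and coding sequences were read from GENCODE transcripts of GRCm38 and start-site windows from RefSeq.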

Additional observations from a re-analysis of the deposited data

How the results depend on the processing

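No member was called under any of the 14 alternatives of the gene fit, and no member transcript under any of those run on transcripts. Genes called in the whole table were 1 in the reported fit, 0 with library size alone, limma-voom and the 3 TPM fits, 3 without a filter, 4 with DESeq2, 10 with edgeR's exact test, 7 with the replicate block and 16 to 84 with a library left out. Transcripts called were 0, but 246 with DESeq2 and 247 with the exact test. Genes with changed isoform use were 16, and 8 without a filter, 3 with the block, 58 by the F test and 1 to 29 with a library left out. Members with an unadjusted p under 0.05 were 1 without a filter (Ldha), 2 on log2(TPM + 1) without a filter (Ldha and Pkm) and 0 to 4 with a library left out. Pathway genes called ranged from 0 to 1 with a library left out, the 1 being Pdk2 without irradiated library 1, a gene of at most 0.25 TPM. Same-numbered libraries deviated together with a correlation of 0.181 over 10080 genes. With only 2 pairs the numbers were taken as names, and the block gave Pfkp a log2 fold change of -0.0097 in place of 0.019 and changed no call of a member.

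The median log2 fold change of all genes was 0.010, but 0.172 with library size alone, 0.179 on log2(TPM + 1) and 0.210 on log2(TPM + 0.1). Signs turned for Pfkp with limma-voom (-0.037), for Ldhb on TPM (0.067), for Mpc1 on TPM (0.056), for Mpc2 with library size alone (0.10) and on TPM (0.15), and for Pdha1 with library size alone (0.083) and on TPM (0.15). With a library left out, log2 fold changes ranged from -0.12 to 0.47 for Pfkl, -0.39 to 0.35 for Pfkp, -0.18 to 0.42 for Pkm, -0.38 to 0.063 for Ldhb, -0.13 to 0.0036 for Mpc2 and -0.25 to 0.096 for Pdha1. In such fits the lone library is assumed to vary like the pair of the other condition.

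Relative to all genes, list medians moved for the monocarboxylate transporters from -0.016 to 0.25 and 0.22 on TPM with pseudocounts of 1 and 0.1 and to 0.16 without a filter, for the pyruvate carrier from -0.12 to 0.024 and the citric acid cycle from -0.087 to 0.062 on TPM without a filter, and for the dehydrogenase kinases and phosphatases from 0.21 to 0.056 and 0.10 on filtered TPM. Left-out libraries gave ranges of -0.46 to 0.21 for upper glycolysis, -0.40 to 0.060 for lactate dehydrogenases, -0.40 to -0.052 for the pyruvate dehydrogenase complex and 0.030 to 0.33 for its kinases and phosphatases. Over known transcripts alone the mean share was 99.8% for Ldhb and 25.7% for Pfkp, and on estimated counts the share of Mpc1 was 76.0% in place of 72.3%. The causes of these shifts were not tested. Depth limits Hk1 and Ldha, which have too few counts for a fold change.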
